A study of Rattus norvegicus with 6 samples.

Results

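The nuclear pore complex genes were examined in an immortalized rat keratinocyte line (epidermal cells) with and without exposure to 56Fe ions, heavy charged particles found in space radiation. Members were genes with a single symbol in the platform annotation that begins with Nup and a digit, together with Aaas, Pom121, Ndc1, Tpr, Rae1, Ranbp2, Seh1l, Sec13, Gle1 and Ahctf1. Of 14217 genes with a single symbol, 32 were members, and all 32 passed the filter on dim values, which used the mean over both groups. Each gene was read by 1 probe set, chosen by the highest mean intensity over all 6 arrays, so that mean level is a description and was not tested. The choice of probe set did not use the difference between the groups.

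The unirradiated group (3 samples) had no treatment, and the irradiated group (3 samples) was given a dose of 3 Gy of 56Fe ions at 1.01 GeV per nucleon. All 6 samples came from the same line, derived from dorsal skin of newborn male Sprague-Dawley rats. RNA of each sample was hybridised to 1 Affymetrix rat array. The labels used here give no time from exposure to RNA extraction. They do not say that replicates came from different cultures, so the p-values reflect the spread of these samples alone, and that spread may be technical. Nor do they say whether both groups were hybridised together, so group and array processing cannot be told apart. In such bulk RNA, a change in the share of cells of some kind and a change in RNA per cell cannot be told apart.

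Nuclear pores are large channels in the nuclear envelope, built from many copies of a set of proteins called nucleoporins. The Y complex, named for its shape and also known by its subunits Nup107 and Nup160, forms the outer rings, an inner ring and membrane proteins anchor the channel, and nucleoporins rich in phenylalanine-glycine repeats fill its centre and bind transport receptors. Peripheral nucleoporins form filaments on the cytoplasmic face and a basket on the nuclear face. In animal cells the pores come apart when the nuclear envelope breaks down in mitosis, and are rebuilt as daughter nuclei form. In the text below, scaffold means the inner ring and the membrane proteins, and the outer rings are given as their own class.

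After irradiation, mRNA of Aaas, which encodes ALADIN on the cytoplasmic side of the pore, rose 1.73-fold, and mRNA of Nup37, of the Y complex, rose 1.26-fold. Of 32 members, 2 rose, 0 fell and 30 did not pass the limma test at an adjusted p under 0.05. Among all 10354 genes tested, 2.00% were called higher and 0.773% were called lower. At an unadjusted p under 0.05, 12 members were higher and 0 were lower, beside 8.77% and 6.93% of all genes tested.

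The direction was shared more widely than the calls. The log2 change, on the scale log2(intensity + 16), was above 0 in 27 of 32 members, beside 49.8% of all genes tested. With quantile normalization 25 members were above 0, and in the fits without 1 array 25 to 28 were. The median over members was 0.22, beside -0.001 over all genes, for which the range from the 5th to the 95th percentile was -0.29 to 0.38. In 13 of 32 members all 3 irradiated arrays lay above all 3 unirradiated arrays, beside 11.8% of genes tested. In 1 of 32 members, Sec13, all 3 lay below, beside 10.1% of genes tested.

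**Figure D1:**
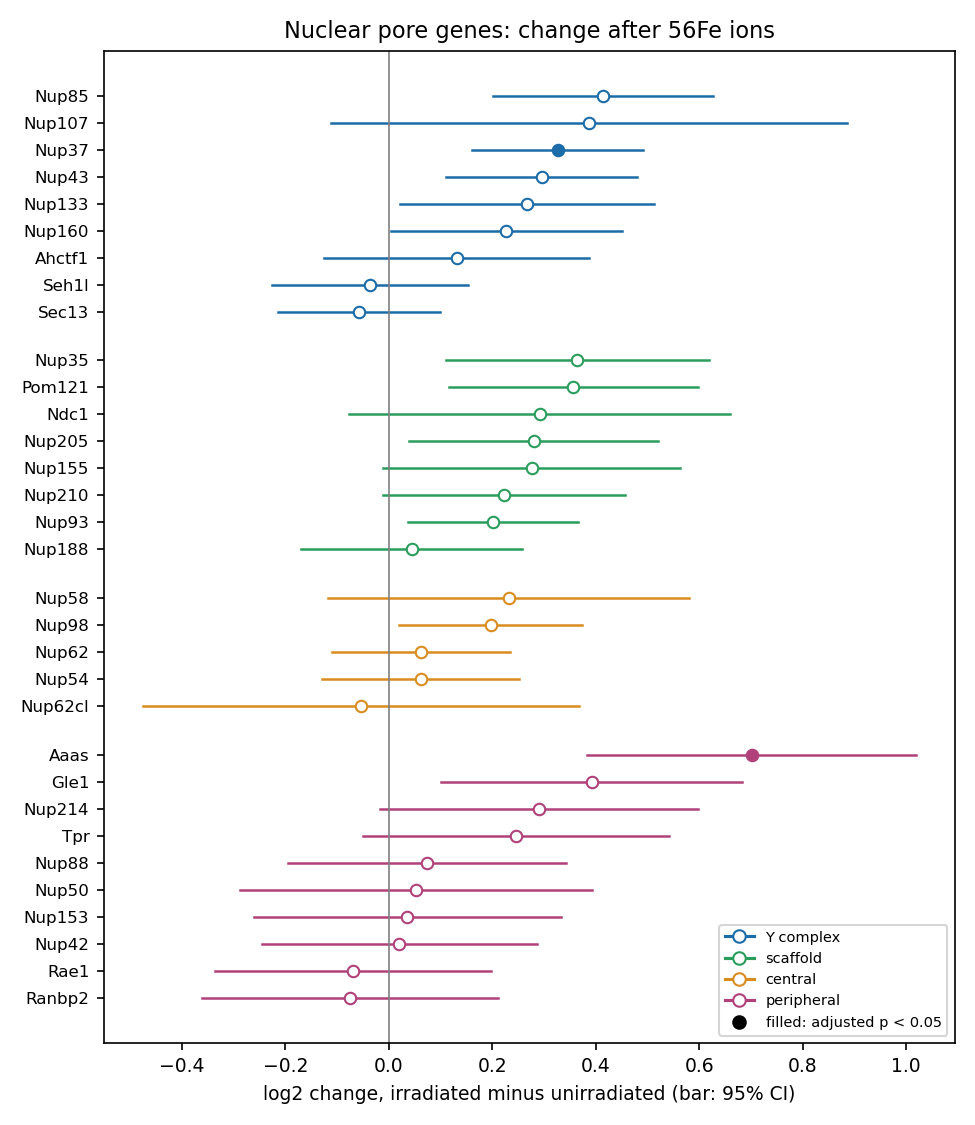
Log2 change of each of the 32 nuclear pore genes, irradiated minus unirradiated, with its 95% confidence interval from limma, by class. Filled points passed an adjusted p under 0.05. The filled points are Aaas at 0.70 and Nup37 at 0.33, and all 8 scaffold points lie above 0.

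Promoters of 4 members are shown, chosen by their log2 changes. Aaas and Nup37 were called. Nup85 had the largest change in the Y complex, and Sec13, of the same complex, had its lowest. Differences in change between these 4 genes were not tested. The sequences are the 250 bases before the annotated start, from RefSeq on rat assembly GRCr8, 5′ to 3′ on the strand of the gene. Capitals mark matches on either strand to the motif letters given after them. The Aaas promoter is at chr7:135362546-135362795, minus strand. That of Nup37 is at chr7:24460982-24461231, plus strand, that of Nup85 at chr10:101305185-101305434, plus strand and that of Sec13 at chr4:148446736-148446985, minus strand.
Aaas: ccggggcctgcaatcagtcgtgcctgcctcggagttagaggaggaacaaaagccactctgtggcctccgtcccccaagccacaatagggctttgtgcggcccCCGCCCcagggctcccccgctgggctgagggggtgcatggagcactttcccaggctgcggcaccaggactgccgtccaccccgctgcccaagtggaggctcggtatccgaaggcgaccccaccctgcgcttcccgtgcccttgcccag
Nup37: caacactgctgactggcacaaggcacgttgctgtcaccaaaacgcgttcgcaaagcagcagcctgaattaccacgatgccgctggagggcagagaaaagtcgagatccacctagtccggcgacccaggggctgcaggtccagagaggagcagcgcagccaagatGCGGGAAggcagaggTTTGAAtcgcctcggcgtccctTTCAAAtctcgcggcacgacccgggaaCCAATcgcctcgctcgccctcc
Nup85: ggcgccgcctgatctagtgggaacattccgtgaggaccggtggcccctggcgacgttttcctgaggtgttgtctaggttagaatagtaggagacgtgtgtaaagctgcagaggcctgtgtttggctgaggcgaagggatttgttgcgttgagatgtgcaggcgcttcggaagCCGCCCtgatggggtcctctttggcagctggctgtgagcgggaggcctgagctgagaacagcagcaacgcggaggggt
Sec13: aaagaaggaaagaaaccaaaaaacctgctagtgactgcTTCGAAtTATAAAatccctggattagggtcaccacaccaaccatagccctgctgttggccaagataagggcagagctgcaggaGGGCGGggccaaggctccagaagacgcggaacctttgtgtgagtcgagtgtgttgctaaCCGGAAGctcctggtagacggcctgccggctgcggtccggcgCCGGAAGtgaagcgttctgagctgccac

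The motifs searched on both strands were the CCAAT box, the cell cycle genes homology region forms TTTGAA, with the variant TTCGAA, the E-box CACGTG, the E2F forms TTCCCGC and, in another version, TTGGCGC, the ETS letters CCGGAAG, the Sp1 letters GGGCGG, the NRF1 part GCGCATG and the TATA form TATAAA. None of these letter strings contains another, although matches can overlap. The search covered 300 bases, the 250 shown and the 50 after the start, and 30 members had a promoter in the table; Ndc1 and Nup107 did not. TTTGAA was found in 10 of 30 member promoters (33.3%), in 18.3% of 33469 promoters in the table and in 11.1% of 8682 promoters of genes tested here. The E2F form TTCCCGC was found in 7 of 30 (23.3%), beside 4.21% of all and 8.73% of tested promoters. GGGCGG was found in 20 of 30 (66.7%), beside 33.1% and 64.7%. CCAAT was found in 11 of 30 (36.7%), beside 37.5% and 37.9%. The other E2F form TTGGCGC was found in 2 of 30 (6.67%), beside 2.26% and 4.54%. CACGTG was in 5 (16.7%, beside 6.42% and 9.93%) and CCGGAAG in 7 (23.3%, beside 8.75% and 18.8%). GCGCATG was in 3 (10%, beside 3.77% and 7.11%). TTCGAA was in 1 (3.33%, beside 1.69% and 2.05%) and TATAAA in 1 (3.33%, beside 14.2% and 6.23%). Differences from these shares were not tested.

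In the bases shown, Nup37 held TTTGAA on both strands, CCAAT and an E2F form, and in the 50 bases after the start it held the ETS letters and GGGCGG. Nup85 held GGGCGG in the bases shown and no other match in the 300 bases. Aaas held GGGCGG in the bases shown and TTTGAA after the start. Sec13 held the ETS letters at 2 positions, with TTCGAA, the TATA form and the Sp1 letters, so GGGCGG was found in all 4. By class, TTTGAA was found in 4 of 8 Y complex, 2 of 7 scaffold, 2 of 5 central and 2 of 10 peripheral promoters. The E2F form TTCCCGC was found in 3 of 8, 1 of 7, 3 of 5 and 0 of 10, in the same order. Differences between classes in these matches were not tested. The median GC content of member promoters was 61.5%, beside 61.3% for promoters of genes tested. A match is a description of these letters, and binding was not measured.

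The Y complex, a Y-shaped unit of the outer rings that is needed for pore assembly, had 9 members. Of these 1 rose, 0 fell and 8 did not pass, and 5 were higher at an unadjusted p under 0.05. Over all genes tested, 2.00% were called higher and 8.77% were higher at that unadjusted p. The median log2 change of the class was 0.27. The lowest values of the class were those of Sec13 and Seh1l.

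Nup37, a small propeller-shaped subunit of the Y complex, had intensities of 648.3, 680.9 and 657.6 on the unirradiated arrays and 855.9, 845.8 and 801.5 on the irradiated arrays. The groups did not overlap and both were tight, with means of 662 ± 16.8 and 834 ± 28.9 (SD, n = 3). Limma gave a log2 change of 0.33 with an SE of 0.08, and an adjusted p = 0.0497. The call sat at the threshold. It ended in each of the 6 fits without 1 array (limma adjusted p from 0.0668 to 0.188, log2 change from 0.31 to 0.35), and with a pseudocount of 1 (0.0536), median centring (0.0777), no filter (0.0766) or no intensity trend (0.184).

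Nup85, a subunit of the short arm of the complex, was at 334.8, 320.8 and 281.0 without and 392.6, 419.1 and 450.5 with irradiation. These groups did not overlap either, and the log2 change was 0.41 ± 0.10 (SE), beside 0.33 for Nup37. Its limma adjusted p = 0.0525 missed the threshold narrowly. With a pseudocount of 64, a filter at the 60th percentile or a gene's probe sets averaged it passed, at an adjusted p of 0.0497, 0.0414 and 0.0376.

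Nup43, another propeller subunit, was at 454.7, 424.4 and 432.2 without and 538.8, 509.1 and 573.7 with irradiation. Nup133, at the tip of the stem, was at 154.5, 131.4 and 136.4 against 158.1, 179.2 and 180.1. Nup160 was at 278.7, 274.4 and 247.4 against 298.3, 295.0 and 353.8. In each of these 3 genes every irradiated array was above every unirradiated array, by a narrow gap in Nup133 and Nup160. Their log2 changes were 0.30 ± 0.08, 0.27 ± 0.11 and 0.23 ± 0.10 (SE), and limma adjusted p = 0.118, 0.324 and 0.363 did not pass.

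Nup107, the subunit after which the complex is named, had a log2 change of 0.39 but scattered widely. It was at 224.0, 399.4 and 316.9 without and 408.3, 581.8 and 276.2 with irradiation, so the groups overlapped. Its SE of 0.23 was the largest of all members, and limma adjusted p = 0.519. Ahctf1, or ELYS, which brings the complex to chromatin when pores are rebuilt after mitosis, had a change of 0.13 (limma adjusted p = 0.699).

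Sec13 is shared with the coat of vesicles that leave the endoplasmic reticulum. It was at 980.7, 1005.7 and 978.1 without and 937.1, 948.5 and 960.9 with irradiation. The groups did not overlap, but the gap was small, and the log2 change of -0.06 ± 0.07 (SE; limma adjusted p = 0.799) had a 95% confidence interval from -0.21 to 0.10. Seh1l, shared with a complex that controls mTORC1 signalling, had a change of -0.04 (interval -0.23 to 0.15).

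**Figure D2:**
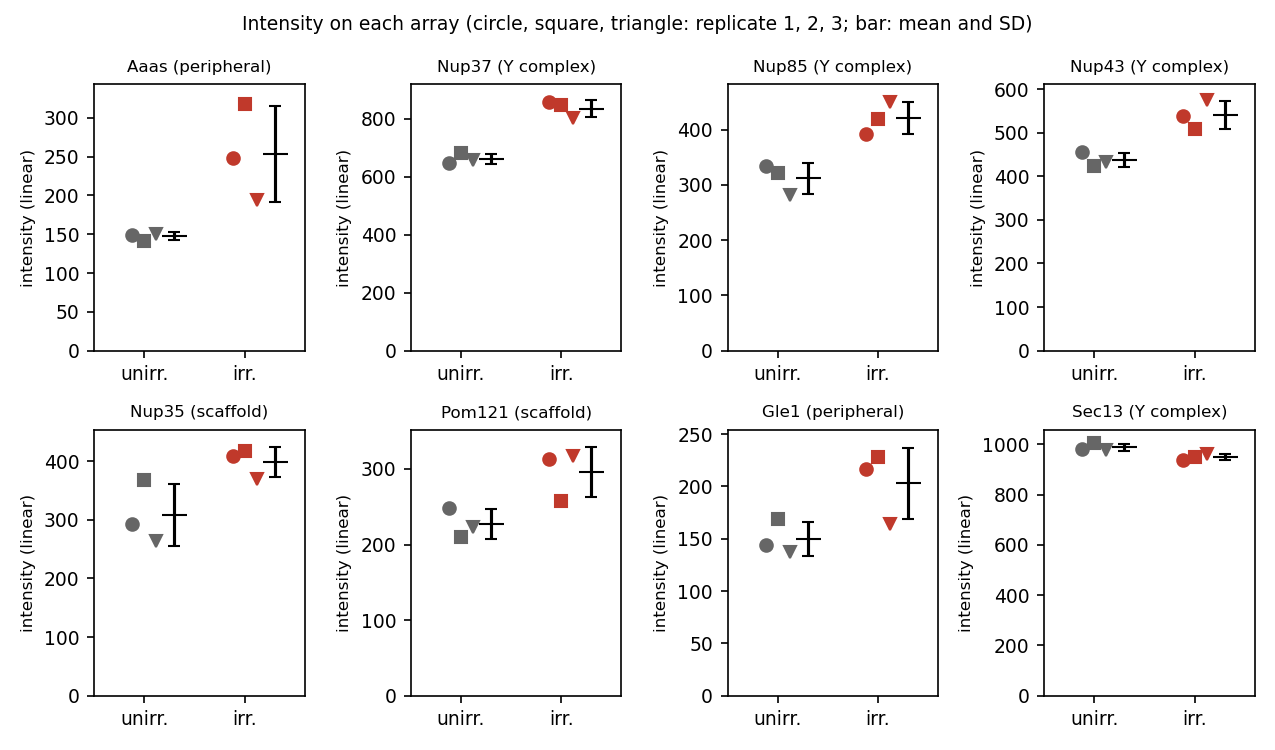
Intensity on a linear scale from 0 on each of the 6 arrays for 8 members, with the mean and SD of each group (n = 3). Nup37 lies between 648.3 and 680.9 without and between 801.5 and 855.9 with irradiation, while Gle1 overlaps and Sec13 lies slightly lower with irradiation.

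The scaffold class held 8 members, 5 of the inner ring and 3 membrane proteins. None passed the limma test: 0 rose, 0 fell and 8 did not pass. At an unadjusted p under 0.05, 4 were higher and 0 lower, beside 8.77% and 6.93% of all genes tested. All 8 log2 changes were above 0, from 0.04 to 0.36, with a median of 0.28.

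Nup35, which links the inner ring to the membrane, was at 293.3, 367.0 and 263.7 without and 407.7, 417.3 and 368.6 with irradiation. The groups did not overlap, but the lowest irradiated value nearly met the highest unirradiated one. Its log2 change was 0.36 ± 0.12 (SE; limma adjusted p = 0.167). Without unirradiated replicate 2, the change was 0.49 and passed (limma adjusted p = 0.0492).

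Pom121, a membrane nucleoporin that acts early in pore assembly in interphase, was at 248.8, 209.9 and 222.7 without and 313.0, 257.3 and 317.3 with irradiation. Again all irradiated arrays were higher, with irradiated replicate 2 close to the unirradiated range. The log2 change was 0.36 ± 0.11 (SE; limma adjusted p = 0.151). The other membrane proteins were Ndc1, at 0.29 with overlap between groups, and Nup210, at 0.22 with none.

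Nup93, the inner ring subunit that recruits the others, was at 1321.0, 1384.7 and 1233.5 without and 1498.4, 1568.4 and 1464.8 with irradiation. The groups did not overlap. The log2 change was 0.20 ± 0.08 (SE; limma adjusted p = 0.253). Nup205, a large partner of Nup93, was at 470.5, 463.0 and 370.4 against 482.9, 514.6 and 592.6, a change of 0.28 ± 0.11 (SE; limma adjusted p = 0.284). Every irradiated array of Nup205 was higher, but the gap was narrow and unirradiated replicate 3 was low.

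Nup155, which binds the membrane, had a change of 0.28 (limma adjusted p = 0.4). Nup188, related to Nup205 and also bound to Nup93, had the smallest scaffold value. It was at 382.8, 428.0 and 434.2 without and 451.6, 380.3 and 455.7 with irradiation, with overlapping groups and a change of 0.04 ± 0.10 on the log2 scale (SE; limma adjusted p = 0.898). Without unirradiated replicate 1 the change was -0.01.

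The central channel class had 5 members: 0 rose, 0 fell and 5 did not pass the limma test. At an unadjusted p under 0.05, 1 was higher and 0 lower, beside 8.77% and 6.93% of all genes tested. The median log2 change was 0.06. Nup62, Nup54 and Nup58 form a trimer whose repeats line the channel. Nup62 had a change of 0.06 (95% confidence interval -0.11 to 0.23) and Nup54 of 0.06 (-0.13 to 0.25). Nup58 was at 150.6, 194.1 and 110.6 without and 168.4, 169.9 and 193.2 with irradiation. The groups overlapped because the unirradiated arrays were spread out, and the log2 change of 0.23 ± 0.16 (SE) gave limma adjusted p = 0.589.

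Nup98, a mobile repeat nucleoporin, was the member of the class whose groups did not overlap. It was at 465.5, 479.1 and 438.3 without and 527.9, 539.2 and 523.6 with irradiation, with the irradiated arrays close together. The log2 change was 0.20 ± 0.08 (SE; limma adjusted p = 0.309). The Nup98 gene also encodes a Y complex subunit, as part of the same precursor, so its mRNA serves both classes. A dimmer probe set of Nup98 had a change of -0.16, and with the gene's probe sets averaged the change was 0.016 (limma adjusted p = 0.969). Nup62cl, a relative of Nup62, was dim: it was at 13.6, 27.7 and 20.6 without and 17.8, 16.3 and 22.7 with irradiation. Its mean of 19.8 was just above the filter value of 18.0, and its change of -0.05 ± 0.19 (SE; limma adjusted p = 0.940) had no settled sign.

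The peripheral class had 10 members and held both the largest and the lowest change of all members. Of these 1 rose, 0 fell and 9 did not pass the limma test, beside 2.00% of all genes called higher. At an unadjusted p under 0.05, 2 were higher and 0 lower, beside 8.77% and 6.93% of all genes tested. The median log2 change was 0.06.

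Aaas, whose loss causes the inherited triple A syndrome in people and whose protein is anchored at the pore by Ndc1, was at 149.5, 141.1 and 150.5 without and 248.7, 317.6 and 194.6 with irradiation. Unirradiated arrays were nearly alike, while the irradiated arrays were all higher and spread widely, highest in replicate 2 and lowest in replicate 3. The mean went from 147 ± 5.16 to 254 ± 61.6 (SD, n = 3), a 1.73-fold rise. The log2 change was 0.70 ± 0.15 (SE; limma adjusted p = 0.0271). Its call ended without any array but irradiated replicate 3 (limma adjusted p up to 0.127), without a filter (0.102) and without an intensity trend (0.111). Without irradiated replicate 3 the adjusted p was 0.00553, and without irradiated replicate 2 the change was 0.53.

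Gle1, which activates the helicase that strips proteins from mRNA on the cytoplasmic face, was at 144.3, 168.5 and 137.3 without and 216.3, 228.4 and 164.3 with irradiation. Irradiated replicate 3 lay inside the unirradiated range, so the groups overlapped. The log2 change was 0.39 ± 0.13 (SE; limma adjusted p = 0.2). A dimmer probe set of Gle1 gave 0.56 with no overlap (limma adjusted p = 0.0615), so both probe sets leaned the same way.

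Nup214, a cytoplasmic filament protein that binds the export receptor Xpo1, had a log2 change of 0.29 (limma adjusted p = 0.408) with no overlap. Its partner Nup88 had one of 0.07 and overlapped. Irradiated replicate 3 was also low in Nup88, at 546.8 against 766.9 and 806.4 on the other irradiated arrays. Nup42, which binds Gle1, and Rae1, which binds Nup98 and takes part in mRNA export, had changes of 0.02 and -0.07. Ranbp2, the large filament protein that binds Ran and holds SUMO-modified Rangap1, was at 69.9, 73.8 and 74.8 without and 70.5, 72.5 and 62.1 with irradiation. These groups overlapped, and the change of -0.08 ± 0.13 (SE; limma adjusted p = 0.863) was the lowest of the members. A dimmer Ranbp2 probe set had a change of -0.33 with no overlap (limma adjusted p = 0.4). The basket proteins Tpr, Nup153 and Nup50 had changes of 0.25, 0.04 and 0.05.

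Set side by side, the class medians were 0.27 for Y complex, 0.28 for scaffold, 0.06 for central and 0.06 for peripheral members, on the log2 scale. The difference between classes was not tested, since members share their arrays and are not replicates. On each array, the median over the Y complex members, relative to the unirradiated mean of each gene, was 0.06, 0.03 and -0.02 without and 0.15, 0.21 and 0.33 with irradiation. For the scaffold it was 0.05, 0.07 and -0.17 against 0.16, 0.25 and 0.31. For central members it was 0.02, 0.05 and -0.07 against 0.11, 0.10 and 0.10, and for peripheral members -0.02, 0.03 and -0.003 against 0.16, 0.13 and 0.14. By these medians the irradiated arrays were above the unirradiated ones in all 4 classes, while the median over all genes stayed between -0.007 and 0.009. By means over members the central class was not separated. Unirradiated replicate 2 was at 0.132, above irradiated replicates 1 and 2 at 0.076 and 0.084. The means on the irradiated arrays were 0.18, 0.21 and 0.11 for peripheral members and 0.16, 0.26 and 0.22 for the Y complex. For the scaffold they were 0.20, 0.23 and 0.33. By means, the peripheral class thus lay nearer to the Y complex than by medians, and above it on irradiated replicate 1.

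Unirradiated replicate 3 was low for the pore genes. It held the lowest of the 3 unirradiated values in 19 of 32 members, and in 6 of 8 scaffold members (not counted over all genes tested). Without it the median change of all members was 0.15, and that of the scaffold was 0.16, so the scaffold median moved by over 1.5 times; the peripheral median was 0.096. Irradiated replicate 3 held the highest of the 3 irradiated values in 17 of 32 members and the lowest in 12. Without irradiated replicate 3 the median of all members was 0.18, the peripheral median 0.14 and the central median 0.10. The central median, over 5 genes, was also 0.12 without unirradiated replicate 1, 0.037 without unirradiated replicate 3 and 0.13 with a filter at the 60th percentile.

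**Figure D3:**
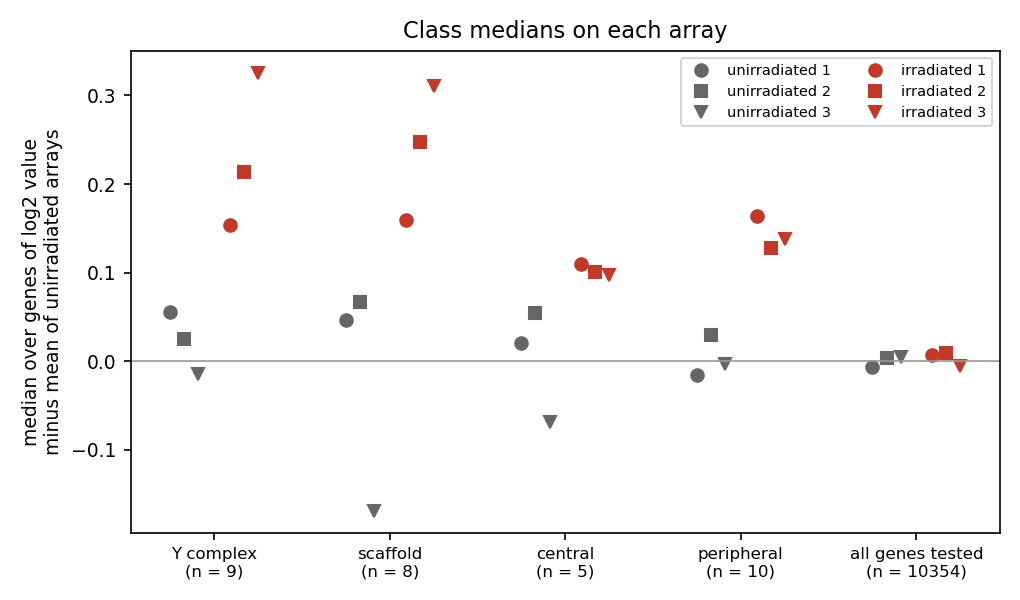
Median over the genes of a class of the log2 value on each array, minus the mean of the 3 unirradiated arrays for each gene. Irradiated medians of the Y complex class are 0.15, 0.21 and 0.33, unirradiated replicate 3 of the scaffold is at -0.17, and all genes tested lie near 0.

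Other probe sets gave a further reading of the same arrays. Of 32 members, 21 had 1 probe set and 11 had several. Of 18 other probe sets 13 were tested, and limma called 0 of them at an adjusted p under 0.05. In 11 of these 13 the log2 change had the sign of the member's own probe set. The exceptions were a probe set of Ahctf1 (-0.02) and the dim probe set of Nup98. The other probe set of Nup37 was under the filter and was not tested. Its means were 17.6 without and 14.0 with irradiation, and the groups overlapped.

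**Figure D4:**
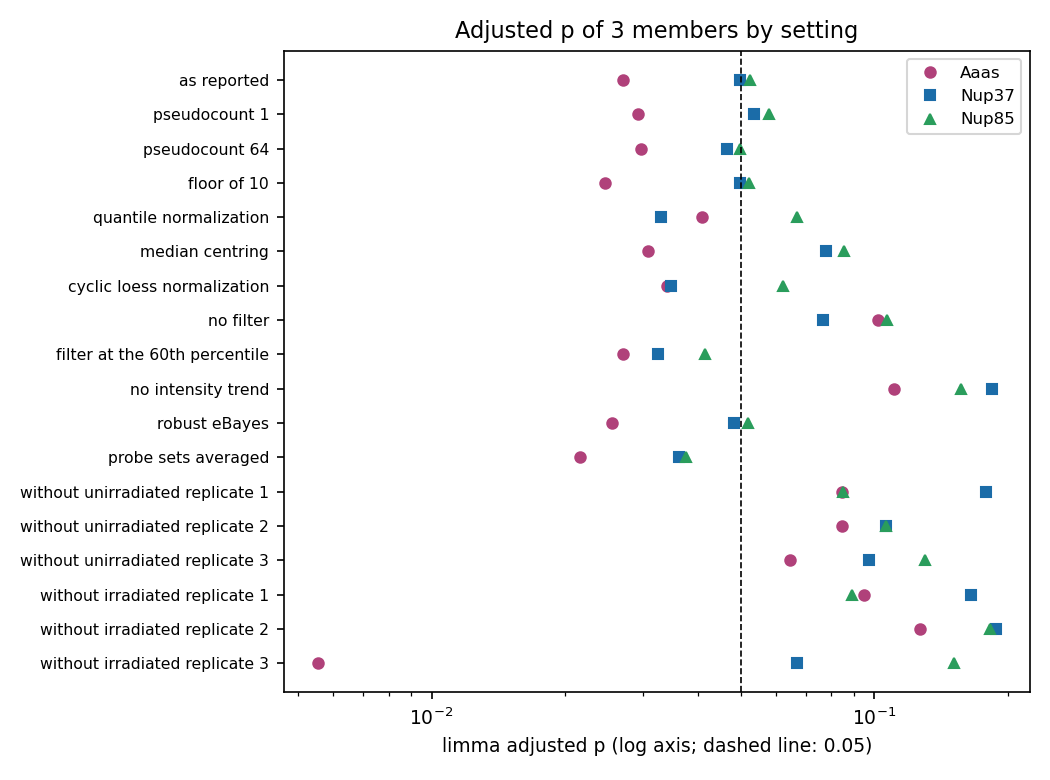
Limma adjusted p, on a log axis, of Aaas, Nup37 and Nup85 as reported and under 17 other settings, with the threshold of 0.05 as a dashed line. Nup37 and Nup85 lie on either side of the line as reported, at 0.0497 and 0.0525, and Aaas without irradiated replicate 3 lies farthest to the left, at 0.00553.

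Other genes tied to the pore were taken from 5 lists: 4 of transport genes (the Ran cycle, import receptors, export receptors and mRNA export) and 1 of pore neighbours, which are nuclear envelope, SUMO protease, membrane remodelling and spindle checkpoint genes. Of 71 genes in the 5 lists, 62 had a probe set. Of the 51 transport genes, 1 rose, 0 fell and 50 did not pass the limma test, beside 2.00% of all genes called higher and 0.773% called lower. At an unadjusted p under 0.05, 4 were higher and 4 lower, beside 8.77% and 6.93% of all genes. The median log2 change of the transport genes was 0.01. With the pore neighbours added, 7 of 62 genes were higher and 4 lower at that unadjusted p, and the median was 0.02. The difference from the pore genes was not tested. The gene that rose was Rangap1, the activator of Ran GTP hydrolysis that Ranbp2 holds at the pore. It was at 1321.8, 1262.1 and 1377.9 without and 1786.0, 1713.7 and 1757.0 with irradiation, groups that lay far apart. The log2 change of Rangap1 was 0.40 ± 0.07 (SE; limma adjusted p = 0.0109), and the call ended without unirradiated replicate 1, unirradiated replicate 2 or irradiated replicate 1, and with no intensity trend.

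By list, 1 of 8 Ran cycle genes rose, and 0 of 16 import receptors, 0 of 11 export receptors, 0 of 16 mRNA export genes and 0 of 11 pore neighbours passed the limma test in either direction. The medians were 0.05, -0.01, -0.03, 0.0001 and 0.03. At an unadjusted p under 0.05, the counts of genes higher and lower were 2 and 1 for the Ran cycle. They were 0 and 1 for import, 2 and 1 for export, 0 and 1 for mRNA export, and 3 and 0 for pore neighbours. The shares over all genes tested were 8.77% and 6.93%. Of 11 pore neighbours, 9 had a log2 change above 0, beside 49.8% of all genes tested. The largest change was 0.44 in Lbr, whose groups did not overlap (limma adjusted p = 0.0639), and the lowest was -0.09 in Chmp7.

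Markers checked the label of the cells. All 10 keratinocyte markers were measured, with summed intensities of 29630 to 33600 without and 24660 to 27220 with irradiation. Of these 0 rose and 4 fell: Krt14, Krt15, Krt17 and Tp63. Over all genes tested, 2.00% were called higher and 0.773% lower. Of 21 markers of fibroblasts, melanocytes, leukocytes and endothelium, 4 passed the filter on dim values, 0 rose and 1 fell, Col3a1. The summed leukocyte markers were at 42.3 to 65.0 without and 48.0 to 50.5 with irradiation, and the endothelial ones at 10.7 to 31.9 and 16.3 to 24.4. Fibroblast sums were 425.7 to 501.3 and 352.3 to 384.5, most of it from Col3a1, with means of 413.3 and 294.7. Other fibroblast markers were dim, and in 2 of them every irradiated array was above every unirradiated one: Col1a1 was at 14.1 to 21.1 without and 31.8 to 40.2 with irradiation (limma adjusted p = 0.0826), and Col1a2, under the filter, at 2.1 to 6.6 and 9.6 to 12.2. Dcn, also under the filter, was at 2.0 to 8.3 and 3.7 to 14.9, and overlapped. Melanocyte sums were 86.7 to 99.8 and 58.3 to 74.6. Of these markers Mitf, which was dim, was at 31.8 to 43.6 without and 14.3 to 21.2 with irradiation (limma adjusted p = 0.0637). Pmel, also dim, overlapped. The ratio of 3′ to 5′ signal of the Gapdh control was 1.30 to 1.34 without and 1.09 to 1.31 with irradiation, and that of the beta-actin control was 0.846 to 1.07 and 0.917 to 1.04. The part of these differences in the pore gene values was not tested.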

How the data were processed

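Intensities of probe sets on Affymetrix RAT 230_2 arrays, on a linear scale, were deposited by the authors; BRB ArrayTools 3.3.0 is named in the series' design text, with no other step stated there or in the labels. Trimmed means (2% at each end) were 150.04 to 150.05 on all 6 arrays, so the table was kept as deposited. Of 31099 probe sets, 57 controls and those under the 40th percentile of mean intensity were left out, and 18632 were tested. Limma 3.58.1 in R 4.3.3 (lmFit, eBayes with an intensity trend, two-sided) was run on log2(intensity + 16), which understates changes of dim genes, with Benjamini-Hochberg adjustment over all tested probe sets; when tested on simulated data it missed most small changes, and false calls ran somewhat above the nominal rate. A fold is a ratio of mean intensities. Few arrays limit the precision (median SE of a log2 change 0.14).

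Gene names came from the platform annotation. Classes, transport lists, markers and motifs were written by hand, and members and lists were chosen with earlier results of these data known. All members are named; array values are given for those with an unadjusted p under 0.05 and the highest and lowest of each class, and for Nup107 and Nup88, chosen after their values were seen. Alternatives were other pseudocounts (1, 64), a floor (10), quantile, median and cyclic loess normalization, other filters (none, 60th percentile), other variance models, averaged probe sets, and leaving out each array.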

Additional observations from a re-analysis of the deposited data

How the results depend on the processing

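The number of members called higher was 1 with a pseudocount of 1 or median centring and 0 in limma without a filter or without an intensity trend, where 13 and 8 members were higher at an unadjusted p under 0.05. Without 1 array it ranged from 0 to 1, with 7 to 13 higher at an unadjusted p under 0.05. No member was called lower in any of the 17 settings, and 0 were lower at an unadjusted p under 0.05. Transport and pore neighbour genes called higher numbered 2 with cyclic loess normalization (Rangap1 and Cse1l) or averaged probe sets (Rangap1 and the pore neighbour Mad1l1). They numbered 0 without an intensity trend (6 at an unadjusted p under 0.05), and 0 to 1 without 1 array. Without irradiated replicate 1 the gene called was Lbr, a pore neighbour, and in the other fits without 1 array that had a call it was Rangap1. With a pseudocount of 64 the Y complex median was 0.21. Without 1 array, the median of all members ranged from 0.15 to 0.23, that of the scaffold from 0.16 to 0.33, that of central members from 0.037 to 0.12 and that of peripheral members from 0.062 to 0.14. Among fits without 1 array the sign turned for 8 members with small changes: Nup188 (-0.011 to 0.13), Nup62cl (-0.20 to 0.082), Nup42 (-0.058 to 0.086), Nup153 (-0.049 to 0.15), Nup50 (-0.036 to 0.17), Nup88 (-0.029 to 0.24), Rae1 (-0.19 to 0.034) and Seh1l (-0.085 to 0.021). It also turned for Nup42 (-0.019) and Nup153 (-0.0033) with quantile and for Nup42 (-0.014) with cyclic loess normalization. Of 542 values for 32 members over the 17 settings, 507 kept their direction and side of the threshold, 17 lost a call, 4 gained one and 14 changed sign. Nup85 gained its call in 3 settings and Nup35 in 1. The causes were not tested. No paired analysis was made, because the labels do not tie any irradiated sample to an unirradiated one. Replicate numbers in the text only count the samples within a group.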
